A study of Mus musculus with 9 samples.

Results

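The Notch pathway is a signalling route between touching cells. Ligands of the Jagged and Delta families on a cell's surface engage Notch receptors on its neighbour, the receptor is cleaved, and its intracellular part enters the nucleus, where it joins the DNA-binding protein RBPJ and raises the transcription of repressors of the Hes and Hey families. In the limb bud the pathway is known for limiting the apical ectodermal ridge and for the shaping of digits, joints and vessels. Its genes are described here by the binding found around them for HOXA13 and HOXD13, the homeodomain transcription factors of the developing digits that are jointly called HOX13.

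Binding was measured by CUT&RUN, which releases the DNA around an antibody-bound protein with micrococcal nuclease and sequences it. All libraries were made from distal forelimb tissue of mouse embryos of the strain B6CBAF1. In wild-type (wt) embryos at E12.5 there were 3 HOXA13 libraries and 3 HOXD13 libraries. The 542 line carries in T-DOM, the telomeric regulatory domain of the HoxD cluster, an inserted copy of the distal limb enhancer II1 with the HBB promoter and lacZ, and its embryos were homozygous for the insertion. From it came 2 libraries for HOXA13 (E12.5) and, for HOXD13, 1 library whose label says E11.5, so antibody, stage and genotype cannot be told apart in that last library. Each replicate was a pool of embryos, and the 542 animals are 1 line. Since the tissue was profiled in bulk, binding in more cells and stronger binding per cell cannot be told apart.

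The 9 genes were chosen by name: the ligands Jag1, Jag2 and Dll1, the receptors Notch1 and Notch2, the glycosyltransferase Lfng that modifies the receptors, and the targets Hes1, Hey1 and Hey2. They are 9 of 21938 protein-coding genes in the mm10 GENCODE annotation. Every peak was taken whose summit fell in the gene record or within 50 kb on either side, and overlapping intervals of different lists were joined into sites. The 6 wt lists gave 119 such sites among 138528 in all. Jag1 lies on chromosome 2 beyond the insertion of the 542 line, where the 542 lists follow another coordinate system, so it was described from wt lists alone. The lists held between 23939 and 117719 intervals at 36.9 to 65.5 M read ends, and HOXD13 replicate 1 of the wt was the shortest of them. These read ends were estimated from the background behind the peak values and are not sequencing counts. HOXD13 replicate 3 is by its label a new analysis of an earlier library, and over the strongest intervals both replicates 3 of the wt went against replicates 1 and 2 of the other antibody (r between -0.178 and -0.268). No list holds RNA levels, so neither the tissue nor the expression of these genes was checked here.

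The sequences that matter for what follows come first. A site is shown as 200 bases around its median summit on the plus strand of mm10, because the summit is where cleavage concentrated. At the next 3 sites the capitals mark a match to the HOX13 consensus, searched on both strands as CCNATAAA, CCNGTAAA, CTNATAAA or CTNGTAAA. They are the sites outside promoters that hold it and were called in most wt lists for Jag1, Notch2 and Notch1.
Jag1, chr2:137166362-137166561: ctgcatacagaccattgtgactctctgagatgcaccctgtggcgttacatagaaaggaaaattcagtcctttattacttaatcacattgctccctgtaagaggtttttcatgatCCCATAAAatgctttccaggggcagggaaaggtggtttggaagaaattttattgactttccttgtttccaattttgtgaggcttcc
Notch2, chr3:98022064-98022263: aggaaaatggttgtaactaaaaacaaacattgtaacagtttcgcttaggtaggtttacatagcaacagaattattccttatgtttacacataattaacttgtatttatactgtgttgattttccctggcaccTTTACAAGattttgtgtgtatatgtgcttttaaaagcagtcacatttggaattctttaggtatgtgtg
Notch1, chr2:26500799-26500998: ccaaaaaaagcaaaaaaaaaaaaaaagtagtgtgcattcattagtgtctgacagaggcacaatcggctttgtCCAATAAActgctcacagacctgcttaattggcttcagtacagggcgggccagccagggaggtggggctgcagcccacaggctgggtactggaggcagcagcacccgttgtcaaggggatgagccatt

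The matches lie 18 bases past the summit at Jag1, 36 bases past it at Notch2 and 24 bases before it at Notch1.

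Promoters are shown as the 250 bases before the RefSeq start (GRCm38.p6), read in the direction of transcription. These are the 2 members with a sequence in the RefSeq promoter table whose promoter site was called in most lists, both genes on the minus strand. The capitals mark the RBPJ core TGGGAA, which reads TTCCCA on the other strand, the motif through which Notch itself acts.
Jag1, chr2:137116521-137116770: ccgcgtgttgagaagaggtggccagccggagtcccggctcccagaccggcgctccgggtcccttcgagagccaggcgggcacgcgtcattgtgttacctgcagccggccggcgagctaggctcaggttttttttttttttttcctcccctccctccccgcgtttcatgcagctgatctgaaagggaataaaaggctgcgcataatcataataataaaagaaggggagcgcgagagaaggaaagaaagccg
Hey2, chr10:30842784-30843033: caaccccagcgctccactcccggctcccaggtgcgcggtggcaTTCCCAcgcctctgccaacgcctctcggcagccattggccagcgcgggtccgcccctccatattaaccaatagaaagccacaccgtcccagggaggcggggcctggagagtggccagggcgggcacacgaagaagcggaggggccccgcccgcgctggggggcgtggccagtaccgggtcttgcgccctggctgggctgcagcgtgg

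Of the 7 members found in that table, 2 (Lfng and Hey2) held the RBPJ core in these 250 bases, and 21.6% of all 32851 promoters did. None of the 7 held the HOX13 consensus there, which 9.14% of all promoters held. A match describes letters and is not in itself a bound site.

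The 119 sites were spread unevenly over the genes. Only 13 of them (10.9%) were called in all 6 wt lists, against 10.0% of all wt sites, and 29 (24.4%) in 5 or 6, against 16.9%. A further 57 sites (47.9%) were called in 1 list only, against 50.6% of all wt sites. By position, 10 sites lay within 1000 bp of a member's transcript start, 28 in its introns and 7 in its exons, 15 at a promoter of another gene, 14 inside another gene and 45 between genes. Of the 29 sites called in 5 or 6 lists, 14 were intronic (11 in Notch2, 2 in Jag1 and 1 in Notch1), 5 lay at member promoters, 3 at promoters of other genes, 1 inside another gene and 6 between genes.

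**Figure D1:**
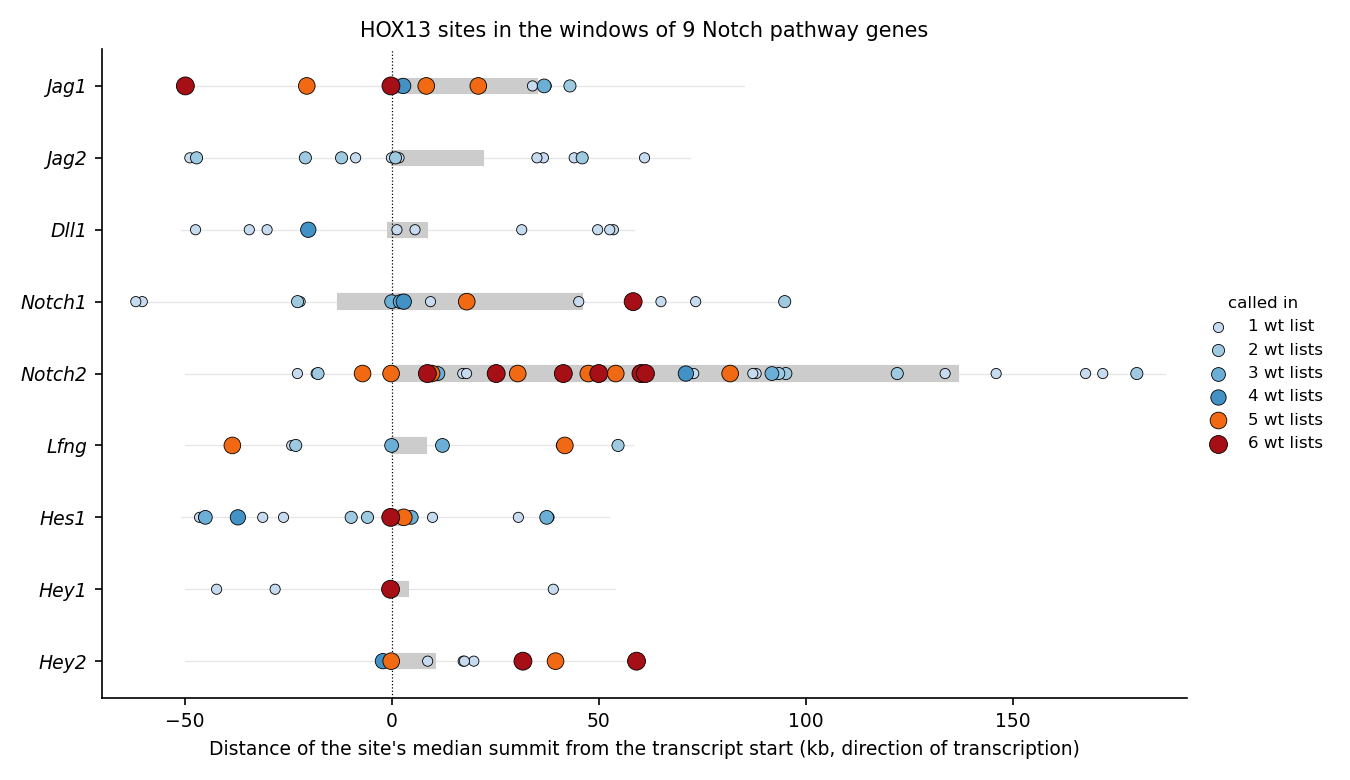
Sites in the windows of the 9 genes, with the distance of the median summit from the transcript start in kb along the x axis. Grey bars are the gene records, thin lines the windows, and the colour and size of a point give the number of wt lists (1 to 6) that call the site. Red points, the 13 sites called in all 6 lists, are most numerous in Notch2 (6), and none stands at Jag2, Dll1 or Lfng.

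Among the ligands, Jag1 (ENSMUSG00000027276.7, chr2:137081456-137116644) was the one with recurrent sites. Its promoter site, chr2:137116363-137117716, was called in all 6 wt lists. The fold enrichment over local background at its summit was 5.61, 2.93 and 7.49 in HOXA13 replicates 1, 2 and 3, and 4.95, 6.96 and 5.66 in HOXD13 replicates 1, 2 and 3. The antibodies overlapped, and HOXA13 replicate 2 was the lowest. The pileups behind these values were 38 to 157 read ends, the lowest with an exact Poisson 95% interval of 26.9 to 52.2.

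A distal Jag1 site, chr2:137165782-137166916, lay 49.8 kb upstream of the start and is the one whose sequence with CCCATAAA is printed above. Its fold enrichment was 11.3, 8.62 and 6.72 with HOXA13 and 4.74, 7.99 and 3.44 with HOXD13, so that the ranges overlapped on this scale. Since the lists differ in depth, each interval was also given the percentile of its −log10 p among all intervals of its own list. Such a percentile still depends on how many weak intervals a list holds, and the part of list length in it was not tested. On that scale the HOXA13 lists stood at 95.7, 92.6 and 98.0 and the HOXD13 lists at 75.1, 91.2 and 64.8, and every HOXA13 list was above every HOXD13 list. A site 20.5 kb upstream and intronic sites 8.36 and 20.9 kb downstream of the start were called in 5 lists each, and all 3 were missing from HOXD13 replicate 1.

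Jag2 and Dll1 looked different. Jag2 (ENSMUSG00000002799.6, chr12:112907819-112929776) had 13 sites, but none was called in more than 2 wt lists. Its promoter site chr12:112928480-112929322, with the summit 0.930 kb inside the gene, was called in 1 HOXA13 and 1 HOXD13 list, with fold enrichments of 2.09 to 3.01. The Jag2 window held no interval in HOXA13 replicate 3 or HOXD13 replicate 1 and up to 9 in HOXD13 replicate 2. Its site of highest rank among those called in 2 lists, chr12:112950200-112950956, is a promoter of Gm26583.

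Dll1 (ENSMUSG00000014773.13, chr17:15367354-15376872), a Delta ligand, had 10 sites, of which 9 were called in a single list. The exception, chr17:15395860-15396383, was called in 4 wt lists, 20.1 kb upstream of Dll1 and at a promoter of Fam120b, with fold enrichments of 2.98 to 5.07. No wt list had a summit within 1000 bp of the Dll1 start, as was the case for 37.0% of protein-coding genes. The 542 HOXD13 E11.5 list had one, at chr17:15375964-15376641, with a fold enrichment of 4.33 and a percentile of 70.7.

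The receptors differed in where their sites lay, inside the gene for most Notch2 sites and on both sides of its borders for Notch1. The gene record takes up 136.8 of the 236.8 kb of the Notch2 window and 58.8 of the 158.8 kb of the Notch1 window. The part of gene length in this difference was not tested. Notch1 (ENSMUSG00000026923.15, chr2:26457903-26516663, a record that begins 12.8 kb upstream of the start used here) had 16 sites, 2 at its own promoters, 5 in its introns, 1 in an exon, 2 at promoters of other genes, 2 inside other genes and 4 between genes. Its intronic site chr2:26485314-26486199, in intron 2 of 33, was called in 5 wt lists. The fold enrichment there was 9.24, 5.10 and 5.80 with HOXA13, and 3.23 and 4.68 in HOXD13 replicates 1 and 2, while HOXD13 replicate 3 did not call it. Each HOXA13 fold enrichment was above both HOXD13 ones, but the share of all sites separated in this way was not computed. By percentile of −log10 p the antibodies overlapped, at 93.9, 80.7 and 85.6 with HOXA13 and 23.8 and 83.6 with HOXD13. The promoter site chr2:26503722-26504140 was called in 3 wt lists only (1 HOXA13 and 2 HOXD13), with fold enrichments of 2.63 to 3.25.

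The window of Notch1 held 1 site called in all 6 wt lists, chr2:26445042-26446089. It lies 58.3 kb downstream of the start, beyond the end of the gene, at the promoters of Sec16a and 0610009E02Rik. Its fold enrichment was 7.47, 3.62 and 5.23 with HOXA13, and 6.20, 8.28 and 5.03 with HOXD13. HOXA13 replicate 2 was the lowest again, and the antibodies overlapped.

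Notch2 (ENSMUSG00000027878.11, chr3:98013527-98150361) had the most sites of the 9 genes. It held 33 of the 119, of which 19 were intronic, and 13 of the 29 sites called in 5 or 6 wt lists. Its window is also the longest (236.8 kb), and per length it had 13.9 sites per 100 kb, against a median of 7.30 over all protein-coding genes. Of the 21938 genes, 95.4% had a lower density. Of the other members, Hes1 (15.5), Jag2 (10.7) and Notch1 (10.1) were above 10 sites per 100 kb and Hey1 was the lowest at 3.85.

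All 11 intronic Notch2 sites called in 5 or 6 lists lay between 8.63 and 81.7 kb from the start, in introns 1 to 5 of 33. The highest in rank among those in all 6, chr3:98063141-98063938 in intron 2, had fold enrichments of 4.49, 4.98 and 2.81 with HOXA13 and 4.67, 7.14 and 2.91 with HOXD13. Both replicates 3 were the lowest of their antibody. The intron 1 site with the printed TTTACAAG, chr3:98021805-98022451, was weaker, at 2.87, 2.78 and 2.64 with HOXA13 and 3.93, 3.11 and 2.13 with HOXD13. Its percentiles in the wt lists ran from 0.0851, near the floor of a list, to 69.6.

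A Notch2 site 7.03 kb upstream of the start, chr3:98006008-98006847, reached 10.2, 7.08 and 3.99 with HOXA13 and 4.70 and 7.09 in HOXD13 replicates 1 and 2, and was absent from HOXD13 replicate 3. It also holds the HOX13 consensus. The Notch2 promoter site, chr3:98012848-98014544, was called in 5 wt lists, with fold enrichments of 4.09, 4.76 and 2.73 for HOXA13 and 4.24 and 3.86 in HOXD13 replicates 2 and 3.

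Lfng (ENSMUSG00000029570.5, chr5:140607320-140615545) had no site in all 6 wt lists. Its most recurrent site, chr5:140568417-140569245, 38.5 kb upstream, was called in 5, with 6.16, 5.16 and 3.47 for HOXA13 and 3.90 and 4.57 in HOXD13 replicates 1 and 2. The protein-coding gene nearest to that site is Grifin, 3781 bp away. The Lfng promoter site chr5:140607138-140607727 was called in 3 lists at 3.24 to 3.64. A site in 5 lists 41.8 kb downstream of the start stands at the promoter of Ttyh3.

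All 3 targets had a promoter site, called in all 6 wt lists at Hes1 and Hey1 and in 5 at Hey2, where the most recurrent sites lay elsewhere. Hes1 (ENSMUSG00000022528.8, chr16:30064384-30067796), a repressor that Notch switches on in many tissues, had a promoter site in all 6 wt lists at chr16:30064006-30065529. The fold enrichment was 3.87, 3.05 and 2.83 with HOXA13 and 3.60, 4.31 and 1.93 with HOXD13. The 3.60 of HOXD13 replicate 1 belongs to a summit at chr16:30064333, upstream of the gene record. In the other wt lists the main summits lay between 30065044 and 30065177, so that value describes another place in the site. The antibodies overlapped, and HOXD13 replicate 3 was the lowest, at a percentile of 12.0 in its list. A second site, chr16:30067811-30068610, just past the 3′ end of the gene, was called in 5 wt lists at 1.63 to 2.36.

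Hey1 (ENSMUSG00000040289.8, chr3:8663359-8667256) had 4 sites, of which the promoter site chr3:8666770-8668138 was called in all 6 wt lists and the others in 1 list each. Fold enrichments were 5.41, 3.87 and 3.22 with HOXA13 and 4.56, 6.48 and 3.34 with HOXD13. The main summits of the lists spread over 852 bp, so these values need not describe the same place in the site. The antibodies overlapped, and HOXA13 replicate 3 and HOXD13 replicate 3 were the lowest.

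Hey2 (ENSMUSG00000019789.9, chr10:30832359-30842801) had its promoter site, chr10:30842570-30843379, in 5 wt lists. Fold enrichments were 6.77, 5.38 and 2.84 with HOXA13 and 3.60 and 5.21 in HOXD13 replicates 1 and 2. The site with the highest median rank of all 9 windows lay between genes, 31.7 kb downstream of the Hey2 start. It is past the end of Hey2, and the nearest protein-coding gene is Ncoa7, 7777 bp away. The site, called the distal Hey2 site below, reached 17.0, 15.5 and 7.07 with HOXA13 and 4.49, 9.79 and 5.42 with HOXD13. The percentiles were 97.2, 96.8 and 95.1 against 58.9, 93.8 and 85.4, so that the antibodies were separated by rank of −log10 p. The fold enrichments themselves overlapped, but ranked within each list they were separated too, at 99.8, 99.7 and 97.9 against 65.9, 97.5 and 91.4. The pileups were 22 to 168 read ends, the lowest with an interval of 13.8 to 33.3. One more site in all 6 lists, chr10:30783293-30784017, lies inside Ncoa7.

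**Figure D2:**
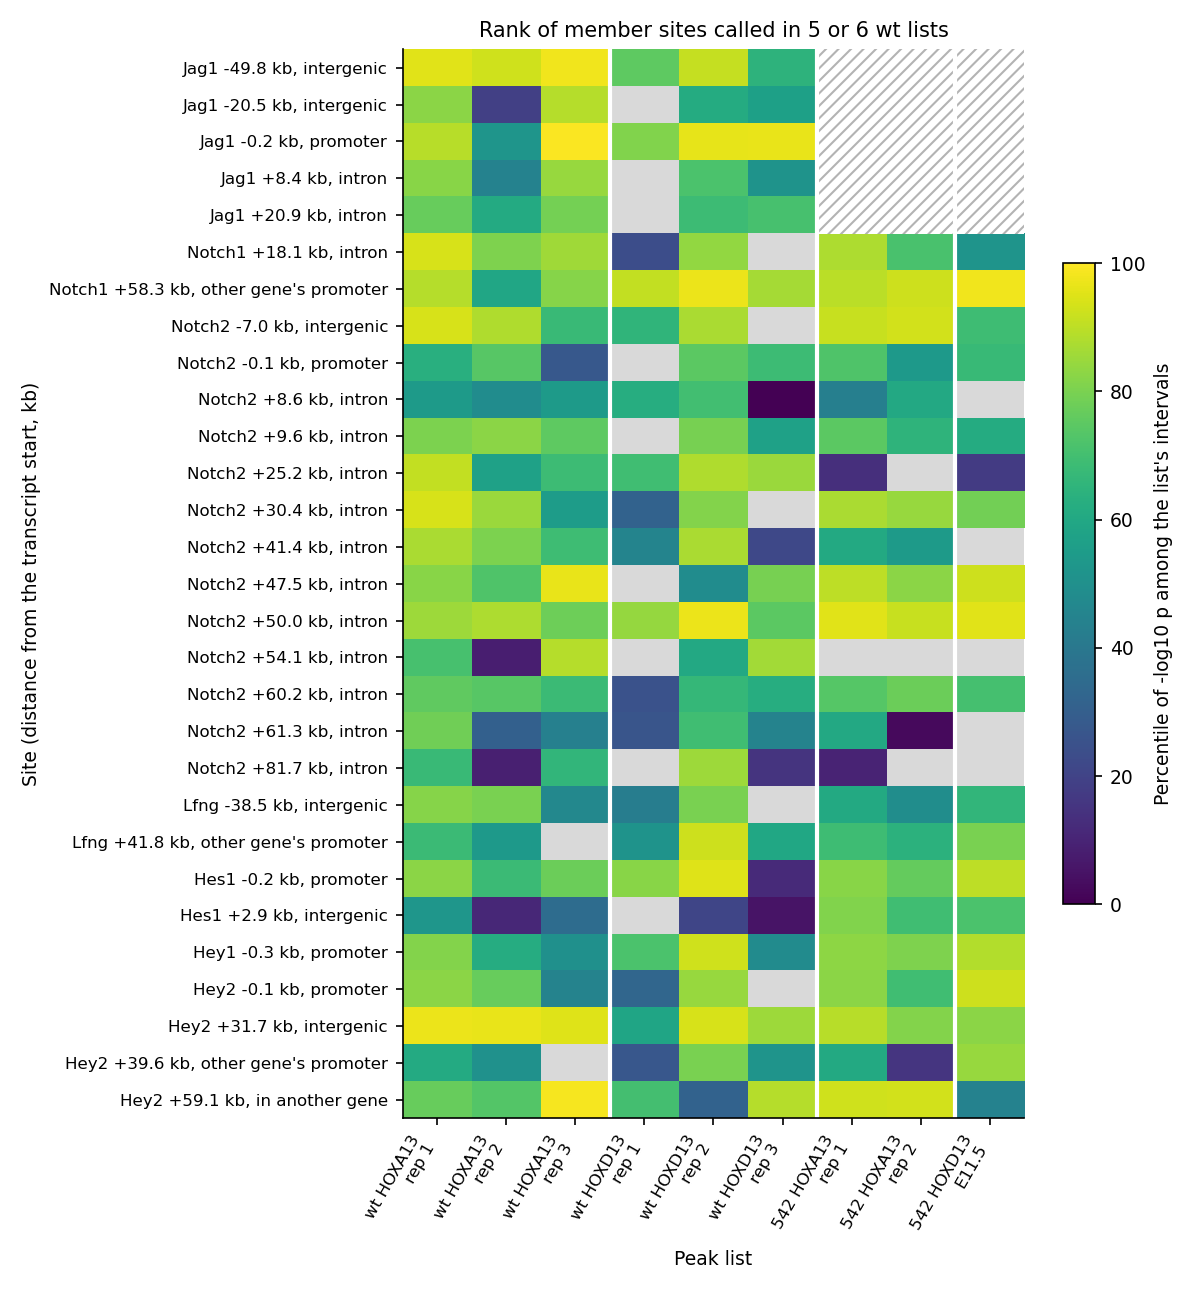
Percentile of −log10 p within each list (colour, 0 to 100) for the 29 sites called in 5 or 6 wt lists, 1 row per site and 1 column per list. Grey cells are not called, hatched cells are Jag1 in the 542 lists, which were not used. Most grey cells of the wt columns stand in HOXD13 replicate 1 (9) and HOXD13 replicate 3 (5), and the 542 HOXD13 E11.5 column is grey only in Notch2.

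Promoters were then counted per gene. Jag1, Hes1 and Hey1 had a promoter summit in all 6 wt lists, which is 3 of 9, where 19.7% of protein-coding genes did. With Notch2 and Hey2, 5 of 9 had one in 5 or 6 lists, against 29.2% of genes. Notch1 and Lfng followed with 3 lists each and Jag2 with 2. Per list the number of members called ran from 4 (HOXD13 replicate 1, where 27.5% of genes were called) to 8 (HOXD13 replicate 2, where 57.5% were). With 9 genes these shares carry little weight against the background.

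The rest of the pathway gives the context. Of 39 other pathway genes, 13 (33.3%) had a promoter summit in all 6 wt lists and 8 had none in any. Of the nuclear partners of Notch, 5 of 6 had one in all lists (Rbpj, Maml1, Maml2, Maml3 and Spen), and of the antagonists 3 of 4 (Numb, Numbl and Fbxw7), where 19.7% of all protein-coding genes did. The groups are small and were not tested. Of 9 genes for receptor processing, 2 had it in all 6 lists and 7 in 5 or 6. Of 10 further ligands and modifiers it was 2, of the receptors Notch3 and Notch4 neither, and of 8 genes grouped as further targets 1 (Hes6). Whether Hes6 answers to Notch was not examined. Of those 8 genes, 5 had no promoter summit in any wt list, where 37.0% of all protein-coding genes had none.

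The 5 promoter sites of highest median percentile in that list were those of Aph1b (92.4), a subunit of the protease that cleaves Notch, Mib2 (90.5), a ligase for ligands, Numb (88.6), which restrains the receptor, Maml1 (88.6), a coactivator, and Spen (88.3), a corepressor that binds RBPJ. The Jag1 promoter site had a median percentile of 92.7, that of Hes1 79.8 (with the upstream summit in HOXD13 replicate 1), Hey2 76.6, Notch2 68.7 and Hey1 66.7. Over all 4124 promoter sites called in all 6 wt lists the median of this value was 82.5. Of the member promoters in all 6 lists, Jag1 was above that median and Hes1 and Hey1 were below it.

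Whether the antibodies differed around these genes was asked first by counting. Divided by the length of the list, the 9 windows together held 8.42 ± 0.942 intervals per 10000 (SD, n = 3) in the wt HOXA13 lists and 10.5 ± 1.23 (SD, n = 3) in the wt HOXD13 lists. The HOXA13 lists had 8.40, 9.38 and 7.5 and the HOXD13 lists 11.3, 11.1 and 9.05, which overlap, although HOXD13 was the higher within each of the 3 same-numbered pairs. The ratio of geometric means was 0.806, and a two-sided exact permutation test gave p = 0.2, where 0.1 is the smallest that 3 lists against 3 allow. Taken as pairs, an exact sign-flip permutation test gave p = 0.25, the smallest that 3 pairs allow. The direction turned when intervals were not divided by list length (1.30) or were limited to a fold enrichment of at least 5 (1.32).

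By gene, Notch2 was the one member whose lists did not overlap. Its window held 2.76, 3.07 and 2.79 intervals per 10000 in the HOXA13 lists and 5.01, 3.38 and 3.46 in the HOXD13 lists, an exact permutation p of 0.1, the smallest possible. Over 19670 protein-coding genes with intervals, 7.6% were separated in this direction and 2.71% in the other, or 10.3% in either, so 1 separated gene of 9 is what the background gives. In numbers of intervals the order was otherwise, with 24, 18 and 16 against 12, 26 and 13.

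**Figure D3:**
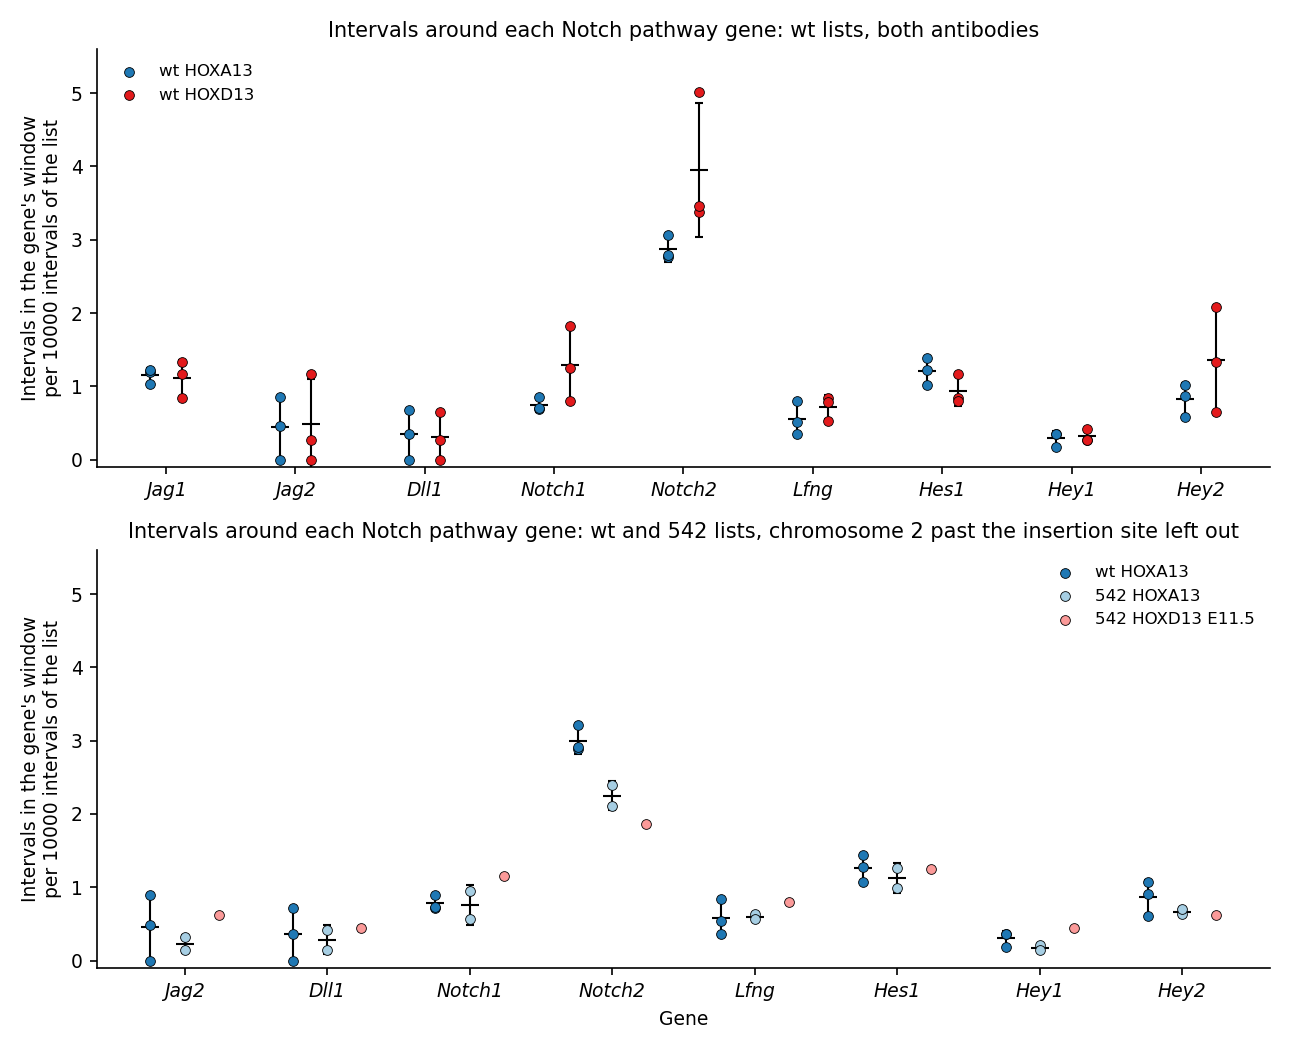
Intervals per 10000 of the list in each gene's window (y axis). The upper panel gives the 6 wt lists and the lower panel the wt HOXA13 and the 542 lists, with chromosome 2 past the insertion left out of the list length. Points are lists, bars the mean and SD; the single 542 HOXD13 E11.5 list has no bar. Notch2 is the one gene where the wt antibodies do not overlap (HOXD13 above HOXA13) and where wt and 542 HOXA13 lists do not overlap (wt above 542), and 10.3% and 22.5% of all protein-coding genes were separated in these comparisons.

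Ranks were compared next. Among the 13 sites in all 6 wt lists, 3 had a higher percentile in every HOXA13 list than in any HOXD13 list, and none the reverse. They are the distal Jag1 site, the distal Hey2 site and the intron 4 Notch2 site chr3:98072992-98074148, whose percentiles were 75.7, 73.9 and 68.3 with HOXA13 and 25.2, 66.8 and 62.4 with HOXD13. Over all 13916 such sites 16.3% were separated in this direction and 2.45% in the reverse, so that 3 of 13 is close to the background. Ranked by fold enrichment in place of −log10 p, 1 of the 13 was separated, the distal Hey2 site.

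No member site was called in all 3 lists of an antibody and in none of the other, and genome-wide 1.32% of sites were so for HOXA13 and 0.0318% for HOXD13. Of the 16 sites called in 5 lists, 14 lacked a HOXD13 list and 2 a HOXA13 list, and of all 9534 such sites 87.8% lacked a HOXD13 list, so that the members follow the background. HOXD13 replicate 1, the shortest list, accounted for 9 of them (58.4% of all such sites), and without it 22 sites in place of 13 were shared by all remaining lists. What part the length of that list has in these absences was not tested.

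The 542 line was compared at the 8 other genes. The windows held 7.60 ± 1.01 intervals per 10000 (SD, n = 3) in wt HOXA13 and 6.08 ± 0.649 (SD, n = 2) in 542 HOXA13 lists. The wt lists had 7.70, 8.56 and 6.55 and the 542 lists 6.54 and 5.62. The ratio of 1.25 gave a two-sided exact permutation p of 0.2, with 0.1 the smallest possible for 3 against 2. At a fold enrichment of at least 5 the ratio was 1.01, and without division by list length it was 0.964. The 542 HOXD13 E11.5 list had 7.20. The 542 HOXA13 lists held 99090 and 74344 intervals and the wt HOXA13 lists 57367 to 86941, so that 1 of the 2 was longer than every wt list, and the part of list length was not tested beyond that ratio.

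Notch2 was again the gene whose groups did not overlap, with a mean of 3.0 in wt and 2.25 in 542 HOXA13 lists. Of protein-coding genes 13.8% were separated in this direction and 8.74% in the other, or 22.5% in either, so 1 separated gene of 8 is no more than the background gives. Without the Notch2 window, the ratio over the remaining genes was 1.2. In numbers of intervals the Notch2 groups overlapped, with 24, 18 and 16 in the wt and 20 and 17 in the 542 HOXA13 lists.

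At single sites the genotypes split both ways. Of 21 sites called in all 5 HOXA13 lists, 3 ranked higher in every wt list and 3 higher in both 542 lists, against 7.7% and 23.1% of all such sites. Higher in wt were the distal Hey2 site, at 97.2, 96.8 and 95.1 against 89.1 and 81.5, and the Notch2 intronic sites 9.64 and 41.4 kb from the start. Higher in 542 were the site past the Hes1 3′ end, at 52.6, 11.0 and 35.4 against 81.0 and 69.2, the Sec16a promoter in the Notch1 window and the Notch2 site 50.0 kb from the start. At that Hes1 site the main summits lay between 30068268 and 30068340 in the wt HOXA13 lists. In the 542 HOXA13 lists they lay at 30068002 and 30068006, so its ranks need not describe the same place in the site.

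Most recurrent wt sites were found again in the 542 lists. Of the 24 sites called in 5 or 6 wt lists outside Jag1, 23 overlapped an interval of 542 HOXA13 replicate 1 (95.8%), 21 of replicate 2 (87.5%) and 19 of the 542 HOXD13 E11.5 list (79.2%). Genome-wide the shares were higher, at 97.9%, 96.5% and 90.5%. Every one of the missing sites was in Notch2, of whose 13 sites these lists held 12, 10 and 8, and the other 11 sites were found in all 3 lists. The Notch2 site 54.1 kb from the start, in intron 2, was called in none of the 542 lists, although its wt values were 3.66, 2.09 and 3.83 with HOXA13 and 2.63 and 3.74 in HOXD13 replicates 2 and 3.

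In the other direction, 39 sites of the 8 windows appeared in 542 lists and no wt list. Of these, 24 were in the E11.5 list alone, the longest of all lists, and 2 in both 542 HOXA13 lists. Genome-wide, 55.6% of such sites were in the E11.5 list alone and 10.6% in both 542 HOXA13 lists. By list, 13 of the 62 intervals in the windows overlapped no wt site in 542 HOXA13 replicate 1 (20.97%, against 27.1% of all its intervals), 4 of 40 in replicate 2 (10.0%, against 17.8%) and 26 of 81 in the E11.5 list (32.1%, against 44.7%), so each share was below that of the whole list. The highest in rank was a site 31.4 kb downstream of the Hes1 start, chr16:30096143-30097181, with a fold enrichment of 8.74 in the E11.5 list and 2.43 in 542 HOXA13 replicate 1. A single list has no replicate, and the part of its length was not tested.

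The HOX13 consensus was the last property examined. It was present within 200 bases around the summit at 2 of the 13 sites in all 6 wt lists (15.4%, exact 95% interval 1.92 to 45.4), namely the distal Jag1 site and the intron 1 site of Notch2. Among all sites called in all 6 lists the share was 34.8%, which lies inside that interval. The interval treats sites as independent draws, although 6 of the 13 lie in Notch2, so no conclusion is drawn from it. The share among all sites in all 6 lists was 13.5% at promoters of any gene, which made up 29.7% of those sites, and 43.8% outside them. Of the 9 member sites outside promoters, 2 held the consensus. The shorter core ATAAA or GTAAA was present at 69.2% of the 13 sites and 77.0% of all sites in all 6 lists.

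Over all 119 sites 15 held it (12.6%), and 23.4% of all wt sites did. None of the 25 at a promoter of any gene had it, and 10 of the 28 intronic sites did. The share by position over all wt sites called in any list was not computed, so these counts have no background. By gene, 7 of the 15 were Notch2 sites, 3 Jag1, 2 each Jag2 and Notch1 and 1 Lfng, whereas no site at Dll1, Hes1, Hey1 or Hey2 held it. The base composition went along with the position: the median GC content of the 200 bases was 72.0% at member promoters and 44.5% in introns. The RBPJ core was found at 29 of the 119 sites (24.4%), against 17.7% of all wt sites, and at 2 of the 13 in all 6 lists, against 16.7% of all sites in all 6.

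**Figure D4:**
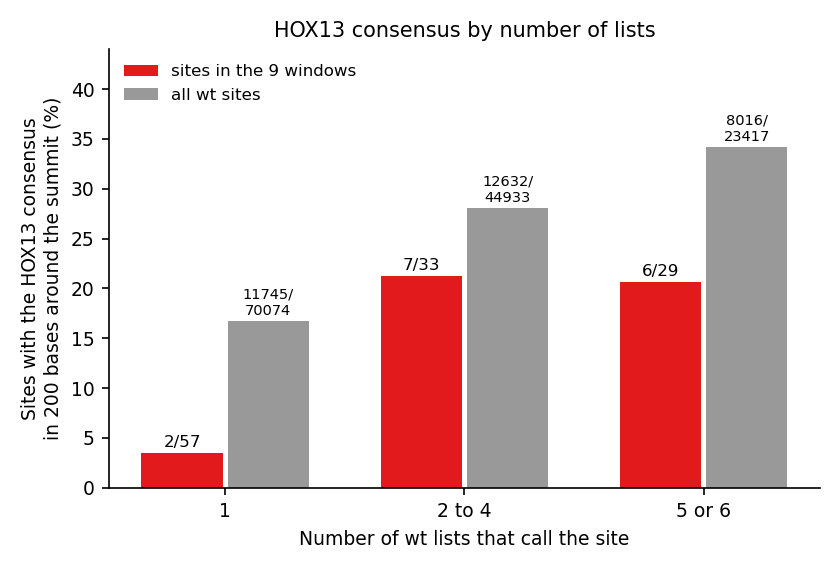
Share of sites (y axis, percent) with the HOX13 consensus in the 200 bases around the summit, by the number of wt lists that call the site. Red bars are sites in the 9 windows and grey bars all wt sites, with counts above each bar. In the windows the share goes from 3.51% (1 list) to 21.2% (2 to 4) and 20.7% (5 or 6), and over all sites from 16.8% to 28.1% and 34.2%.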

How the data were processed

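CUT&RUN peak lists, 1 per library, were taken as deposited. Per the study's methods, reads were trimmed with Cutadapt, mapped with bowtie2 (wt on mm10, 542 on the mutant genome) and filtered on mapping quality, and summits were called per sample with MACS2 without a control and with duplicates kept. Such a filter can lower signal in repeats, and duplicates raise pileups. The deposited values are a fold enrichment (a ratio of pileup to local background), −log10 p-values and q-values and an integer score made from the latter, which was used nowhere. They describe 1 peak each; positions are the other deposited columns.

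Rows with equal start and end were joined into 1 interval, and intervals of wt lists that share at least 1 bp into sites. Promoters are 1000 bp either side of a start in GENCODE vM21 basic. Coordinates are 1-based, mm10, and sequence came from GRCm38, the same assembly. Pileups were recovered by solving fold enrichment and −log10 p, and were whole within 0.01 for at least 99.9% of summits. Intervals cover counting error only. Groups came from the titles; the growth protocol gives 1 collection day for all samples. p-values measure the spread between pools. Scripts were tested on simulated data. Members, lists and tests were chosen with earlier results of these data known; promoter and outside sites were named by number of lists, then median percentile, as were the 10 highest of the sites in all 6 lists. The sequence at a distal site near Hey2 is not reported here. Same-numbered wt libraries deviated together (r = 0.110, 0.143 and 0.348 over 20310 merged top intervals), so the numbers, from the titles, were taken as pairs. For replicates 1 and 2 this is weak, since HOXA13 replicate 1 with HOXD13 replicate 2 gave 0.219 and HOXA13 replicate 2 with HOXD13 replicate 1 gave 0.146. Alternatives were other thresholds, list lengths, windows, ranks, motifs and left-out replicates. Samtools 1.23.1, matplotlib 3.10.9, pysam 0.24.0, scipy 1.17.1, pandas 2.3.3 and numpy 2.4.6 ran under Python 3.11.15.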

Additional observations from a re-analysis of the deposited data

How the results depend on the processing

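The ratio of HOXA13 to HOXD13 intervals per 10000 (0.806) stayed below 1 in 14 alternatives and was 1.30 without division by list length and 1.32 at a fold enrichment of at least 5. Leaving out replicates gave 0.751 to 0.852, the replicate block over 3 pairs 0.806 (exact sign-flip permutation p = 0.25), and dropping the Notch2 window, chosen after the data were seen, 0.854. The ratio of wt to 542 (1.25) stayed above 1 in 14 alternatives, though it was 1.01 at a fold enrichment of at least 5. It was 0.964 without division by list length, 1.16 to 1.34 without single replicates, and 1.34 (permutation p = 0.5) with the replicate block. The smallest p possible is 0.1 for 3 lists against 3 or 2, 0.333 for 2 against 2, 0.25 for 3 pairs or for 3 lists against 1 and 0.5 for 2 pairs, so no alternative could give a lower one and these p-values say nothing of stability.

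Counts depended on thresholds. Promoters in all 6 wt lists (3) were 0 at a fold enrichment of at least 5, 1 at a −log10 q of at least 5 and 0 in the top 20000 intervals, and 3 to 4 without single replicates. Sites in all 6 lists (13) were 0, 6 and 3 under the same limits, 7 within gene records, 5 with all summits within 100 bp, and 13 to 22 without single replicates, the 22 without HOXD13 replicate 1. Sites separated between antibodies (3 of 13) were 1 of 13 when ranked by fold enrichment and 3 to 6 without single replicates. They were 5 of 13 without HOXA13 replicate 1 and 6 of 18 without HOXD13 replicate 3. Sites separated between genotypes (6 of 21) were 6 to 12 without single replicates. They were 10 of 20 without 542 HOXA13 replicate 1 and 12 of 23 without 542 HOXA13 replicate 2. Groups with fewer lists separate more easily, and the share over all sites was not computed without single replicates, so these counts have no background. The consensus share (15.4%) was 13.3% to 22.2% without single replicates and 69.2% for the core ATAAA or GTAAA, which 77.0% of all sites in all 6 lists held. Thin pileups in the shorter HOXD13 lists limit what can be called absent.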
